A study of Sminthopsis crassicaudata with 9 samples.

Results

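The regions described here are putative enhancers that lie inside genes. They are stretches of chromatin in the face of the newborn fat-tailed dunnart, a small carnivorous marsupial, that carried H3K27ac and no H3K4me3, stood over 3 kb from every transcription start site (TSS) and lay wholly within a gene body. Of 148724 H3K27ac regions found in both ChIP-seq replicates, 33201 shared no base with an H3K4me3 peak and 31604 of these were over 3 kb from every TSS. A gene body holds 14813 of them, and the other 16791 lie in no gene body. The rule kept a replicate 1 peak with q under 0.05 where it shared at least 50% of its own length, or of the length of the partner peak, with a replicate 2 peak, and removed it where it touched an H3K4me3 peak of either replicate. The regions were chosen by their measured peak calls, so mark, enrichment and distance to a TSS are given as a description with no test. RNA values were not used in the choice. Place within the gene entered only through the 3 kb limit and the ends of the gene. The mark at the TSS of the gene was read from the same H3K4me3 peak lists that removed regions. In gene bodies the regions removed for H3K4me3 were denser in expressed genes, so the choice was not independent of RNA.

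All samples are untreated facial tissue of newborn pouch young, under 24 hours old for ChIP-seq and labelled P0, the day of birth, for RNA-seq, so no group of animals was set against another. The H3K27ac and H3K4me3 libraries were made in 2 replicates, from pools of 26 and 27 heads by the labels, each with its own input chromatin. The 3 RNA libraries, called FP1, FP2 and FP3 by the columns of the count table, each came from a pool of 2 young and held 17419099, 16358621 and 16096971 counts. A gene body was taken as the stretch between the lowest exon start and the highest exon end of a gene model, and its outermost exon end by strand as the TSS, so a start site inside a gene was not seen by the rule. The models are those of the Tasmanian devil carried over to the dunnart assembly.

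H3K27ac is an acetyl mark set on nucleosomes by the coactivators p300 and CBP, and it accompanies active enhancers and active promoters. H3K4me3 is concentrated at active promoters, so a stretch with the acetyl mark and without H3K4me3, away from any start site, is a common working definition of an active enhancer. Many vertebrate enhancers lie in introns, and such an enhancer can act on the gene around it or reach past it to another promoter.

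Which regions ranked as strongest by mean enrichment depended mostly on the replicate 2 peak. The rule looked for H3K4me3 under the replicate 1 peak only, and 838 of the 14813 regions (5.66%) were matched to a replicate 2 peak that did touch H3K4me3. Those partners were long, with a median of 1760 bp against 429 bp for the partners of the other 13975 regions, and their median fold enrichment over input was 5.58 against 3.96. The replicate 1 peaks of these 838 and 13975 regions had medians of 3.69 and 3.89. Without the 838 regions, a choice made after seeing the data, the share of regions with an expressed host was 70.9% in place of 71.2% and the median log2 ratio of host to nearest other gene 0.28 in place of 0.30, both moves smaller than the spread between the RNA libraries.

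The regions were short and moderately enriched in both replicates. Their median fold enrichment was 3.87 in replicate 1 and 4.03 in replicate 2, with 80% of the regions between 2.77 and 5.54 and between 2.84 and 5.88, and their median length was 421 bp. A replicate 2 value is that of the whole partner peak, which can reach past the region. Regions inside gene bodies that also carried H3K4me3, of which there were 49818, had medians of 5.16 and 5.37 and a length of 860 bp. The H3K27ac-only regions outside gene bodies, with medians of 3.87 and 4.03 and a length of 427 bp, were close to those inside. Over the 14813 regions the fold enrichments of the replicates had a Spearman correlation of 0.22, a description over regions that share libraries, against 0.58 for the regions with H3K4me3. The mean over the replicates passed 10-fold in 25 regions, or 0.169%, and 21 of these 25 had a replicate 2 partner that touched H3K4me3.

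**Figure D1:**
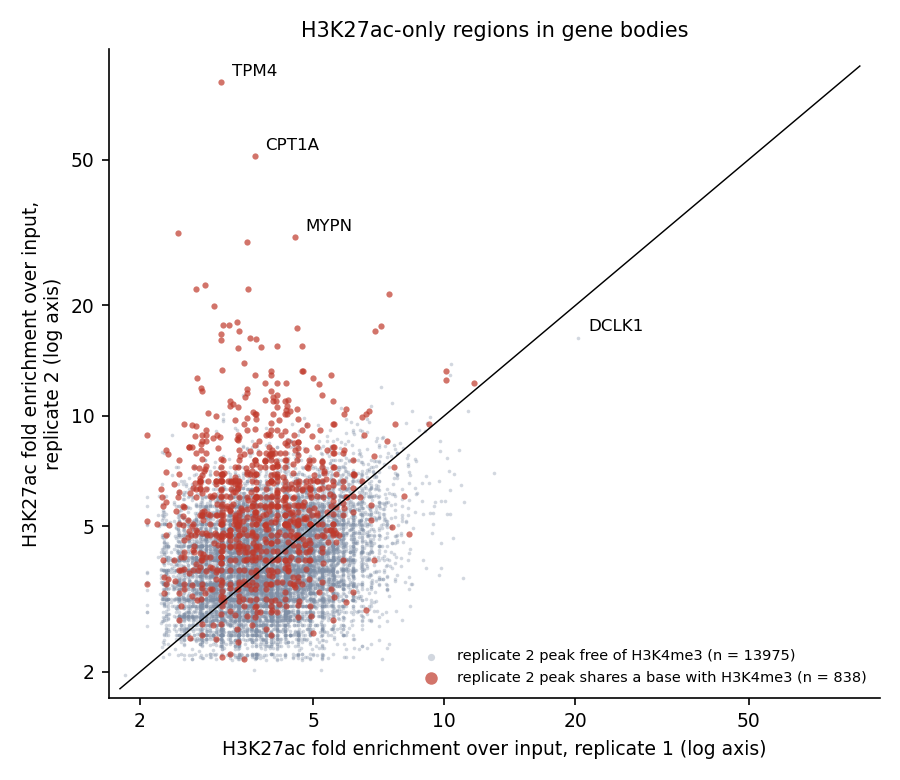
H3K27ac fold enrichment over input of each of the 14813 regions in replicate 1 (horizontal) and of its partner peak in replicate 2 (vertical), both on log axes, with a line of equal values. Red points are the 838 regions whose replicate 2 peak shares a base with H3K4me3, grey points the other 13975. The strongest red points stand high on the vertical axis alone, as at TPM4 with 3.08 and 81.5, while the DCLK1 region is strong on both axes.

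Of the 10 regions of highest mean enrichment, 9 rested on replicate 2. The leading region lies in an intron of TPM4, a tropomyosin that stabilises actin filaments, on scaffold 18 from 12037673 to 12038082. Its enrichment was 3.08 in replicate 1, and its replicate 2 partner, a peak of 5915 bp, had 81.5. A region in an intron of CPT1A, which carries fatty acids into mitochondria, had 3.67 and 51.2, and one in MYPN, a sarcomere protein, had 4.54 and 30.7. The same held in UBE2F, MARK2, ATG2A, PIEZO1, IFFO2 and a gene with only a locus identifier, where replicate 1 lay between 2.45 and 7.48 and replicate 2 between 21.5 and 31.6. In all 9 the replicate 2 partner touched H3K4me3, and in each the region itself lay within 82 to 802 bp of an H3K4me3 peak. The high replicate 2 values are those of the whole partner peaks and not of the short regions. The partners at MARK2 and ATG2A, of 15712 and 14773 bp, covered a TSS, and that at CPT1A, of 8509 bp, lay 1.84 kb from one.

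The exception was a region in DCLK1, a microtubule-associated kinase best known from developing neurons. It spans scaffold 58 from 15634300 to 15635129, lies in an intron 365 kb from the DCLK1 start and 92.8% of the way along the gene, and had a fold enrichment of 20.3 in replicate 1 and 16.3 in replicate 2. The nearest H3K4me3 peak was 21345 bp away. DCLK1 had 5.35, 6.78 and 2.05 TPM in FP1, FP2 and FP3, where TPM is an RNA level per length of exon, scaled to the total of the library. The nearest TSS of another gene, at 352 kb, was that of MAB21L1, a gene of eye and craniofacial development, which averaged 22.1 ± 7.61 TPM (SD, n = 3).

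At the distance limit of the rule, the regions closest to a TSS, in RUFY3 and 2 genes without a symbol, lay at 3001 to 3010 bp with enrichments between 2.84 and 4.62, and those just left out, in PLA2G2D, OAZ2 and another, lay at 2989 to 2995 bp with 2.46 to 4.52. At the q limit, regions in SPAG16, RXRA and PRR5L entered with 2.07-fold enrichment in replicate 1, and peaks in VPS41, BARD1 and BEND4 with 2.35 to 2.37 did not. At the overlap limit, regions in APBB2 and FHIT entered with 50% and those in CPN1 and MASP1 missed it with 49.9%. The median distance from a region to an H3K4me3 peak was 2.99 kb and 3576 regions (24.1%) were within 1 kb of one.

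Where in the gene the regions lay was not set by the rule beyond 3 kb from a TSS, and was compared with eligible territory, a grid of points every 5 kb inside gene bodies and over 3 kb from every TSS. Most summits, the positions of highest enrichment, were intronic, 12758 of 14813 or 86.1%. Exons took 2055 summits, or 13.9% (Wilson 95% interval 13.3 to 14.4%, for counting error only), while 4.51% of territory points were exonic, a ratio of 3.07. For regions in gene bodies with H3K4me3 the exonic share was 18.7%. Internal exons held 1546 of the 2055 exonic summits (75.2%) and the exon at the 3′ end of the host 478 (23.3%), where territory points in exons were split 49.8% and 48.6%. Coding and untranslated parts of exons are not told apart by the gene models of the count table.

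Along the host the regions became more frequent toward the 3′ end. Cut into 5 equal parts from 5′ to 3′, the hosts held 14.9%, 19.5%, 21.0%, 21.4% and 23.2% of the regions, against 17.1%, 20.5%, 20.8%, 20.9% and 20.6% of the territory. The ratio was 0.87 in the first part and 1.13 in the last. In hosts that were expressed the last part held 1.08 times its share of territory, and in hosts that were not it held 1.25 times. The regions with H3K4me3 tilted the same way, with 0.74 and 1.27 in the first and last parts.

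**Figure D2:**
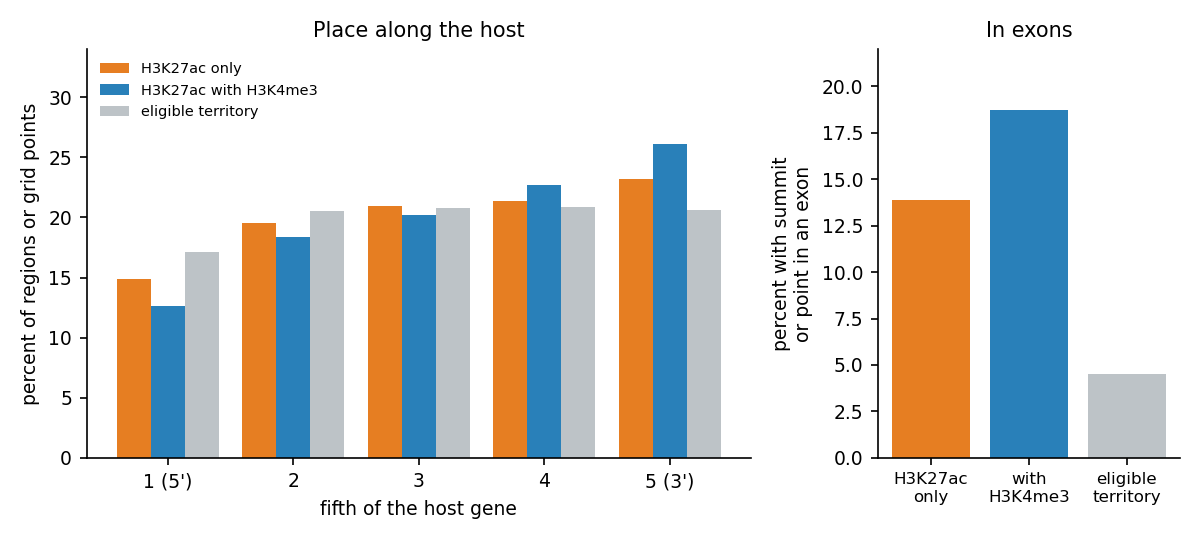
Left, percent of H3K27ac-only regions, of H3K27ac regions with H3K4me3 and of eligible territory in each of 5 equal parts of the host gene from 5′ to 3′, as bars. Right, percent with the summit, or for territory the grid point, in an exon. The H3K27ac-only regions take 23.2% in the last part where the territory has 20.6%, and 13.9% in exons where the territory has 4.51%.

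Gaps between neighbouring regions were measured within each host. Among 2796 hosts with at least 2 regions there were 9397 gaps between neighbours, with a median of 14.7 kb, and 4217 gaps (44.9%) were under 12.5 kb. The 36 regions of CACNA2D3, the 35 of GSE1 and the 34 of ERC2 had no summit in an exon.

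The 14813 regions fell in 5416 of 21703 gene models, and 226 regions lay in 2 genes and 2 in 3, in which case the gene with the nearer TSS was taken as host. A single region was found in 2620 hosts, while 227 hosts held 10 to 38 regions each and together 3446 regions, 23.3% of all. Of the 5405 hosts with usable counts 3637 were expressed, meaning above 1 TPM in every library, which is 67.3% against 56.5% of all 21692 genes. At over 10 TPM the shares were alike, at 34.9% of hosts and 35.2% of all genes. Because the RNA comes from whole tissue, fewer cells of a type and less RNA per cell cannot be told apart. The mark at the TSS comes from the peak lists that also removed regions. An H3K4me3 peak of both replicates within 1 kb of the TSS was present at 4148 hosts (76.7%), against 67.8% of all genes. Among expressed genes it was present at 3194 of 3637 hosts (87.8%) and at 7620 of 8613 genes without a region (88.5%), and among genes not expressed at 954 of 1768 hosts (54.0%) and 2950 of 7674 others (38.4%). These hosts and others not expressed had median spans of 55.6 and 3.65 kb. Within classes of span, hosts and genes without a region had the mark in 54.9% and 57.5% under 10 kb and 68.8% and 72.7% at 10 to 30 kb. The shares were 77.4% and 73.6% at 30 to 100 kb, 81.4% and 71.9% at 100 to 300 kb and 81.2% and 75.8% over 300 kb. Regions with H3K4me3 inside the gene body were found in 4384 of the 5416 hosts.

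The genes with the most regions were very long and had low or intermediate RNA. ANK3, which encodes the membrane scaffold ankyrin-G, held 38 in 610 kb, and its counts were not used because its model is split over 2 lines. CACNA2D3, an auxiliary subunit of voltage-gated calcium channels, held 36 in 1054 kb and had 2.89, 2.58 and 1.10 TPM in FP1, FP2 and FP3. GSE1, a coiled-coil protein found with histone deacetylase complexes, held 35 and had 8.62, 18.2 and 11.6 TPM. CAMTA1, a calmodulin-binding transcription activator, held 34 and had 6.38, 6.73 and 4.51 TPM. CACNA2D3, GSE1 and CAMTA1 were above 1 TPM in every library, with 18.2 TPM in GSE1 as the highest single value.

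At 2 of the 10 the host was not above 1 TPM in every library. ERC2, a scaffold of the presynaptic active zone, held 34 regions in 993 kb with 0.506, 0.615 and 0.313 TPM. HIVEP3, a zinc finger protein that in mouse restrains bone formation by osteoblasts, held 33 with 0.609, 1.07 and 1.01 TPM. Both carried H3K4me3 at the TSS, with enrichments of 41.0 and 27.2 in replicates 1 and 2 at ERC2 and of 37.7 and 44.9 at HIVEP3. RBMS3, an RNA-binding protein, KAZN, a component of cornified epithelium, CREB5, a factor of the CREB family, and HDAC9, a class II histone deacetylase, held 28 to 31 regions each, and their means ran from 3.72 ± 1.47 TPM in CREB5 to 7.43 ± 1.13 TPM in KAZN (SD, n = 3).

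Hosts with high RNA included genes of muscle, of the epidermis and of the cytoskeleton. YBX3, a cold-shock RNA-binding protein, had 475, 567 and 607 TPM with 3 regions, TPM4 had 373, 389 and 424 TPM with 3, and PGM1, an enzyme of glycogen metabolism, had 324, 297 and 471 TPM with 3. LDB3, a Z-disc protein of striated muscle, had 295, 235 and 502 TPM with 5 regions. CASQ2, a calcium-binding protein of the sarcoplasmic reticulum, had 244, 226 and 486 TPM with 3. In LDB3 and CASQ2 the FP3 library was the highest, and the summed TPM of 9 markers of skeletal muscle was also highest there, at 23837, 19953 and 26360 in FP1, FP2 and FP3, while the part of tissue makeup in these levels was not tested.

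PKP1, a desmosome protein of keratinocytes, held 5 regions and had 103, 323 and 279 TPM, lowest in FP1. ACTN4, an actin crosslinker, IGF2BP3, an RNA-binding protein of embryonic tissue, HDLBP, an RNA-binding protein, and BIN1, a membrane-shaping protein of muscle tubules, held 3 or 4 regions each at means between 206 ± 43.3 and 334 ± 37.7 TPM (SD, n = 3). These 10 hosts were taken from those with at least 3 regions, held 3 to 5 each, and spanned 30.1 to 126 kb.

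Other genes held several regions with next to no RNA. CA7, a carbonic anhydrase known from neurons, held 5 regions in 18.6 kb and was at 0 counts in all 3 libraries, with H3K4me3 of 16.2 and 20.2 at its TSS. SPATA16, a gene of sperm formation, held 6 regions in 279 kb and was also at 0 in all 3. ITPRID1 with 6 regions, ENTHD1 with 6 and CDH16, a kidney cadherin, with 5 stayed under 0.1 TPM in every library. The most frequent nearest other gene was NAE1, an enzyme of the NEDD8 pathway, for 4 of the 5 regions of CA7, with 46.2, 49.4 and 43.0 TPM, and ECT2, a regulator of cytokinesis, for the 6 of SPATA16, with 12.1, 19.9 and 10.8 TPM. For CDH16 it was RRAD, a small GTPase of muscle, with 36.8, 32.0 and 58.5 TPM. The other gene was also near 0 for the 6 regions of ITPRID1, with PPP1R17 at 0, 0.994 and 0 TPM, and for the 6 of ENTHD1, with GRAP2 at 0.234, 0.107 and 0.326 TPM.

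**Figure D3:**
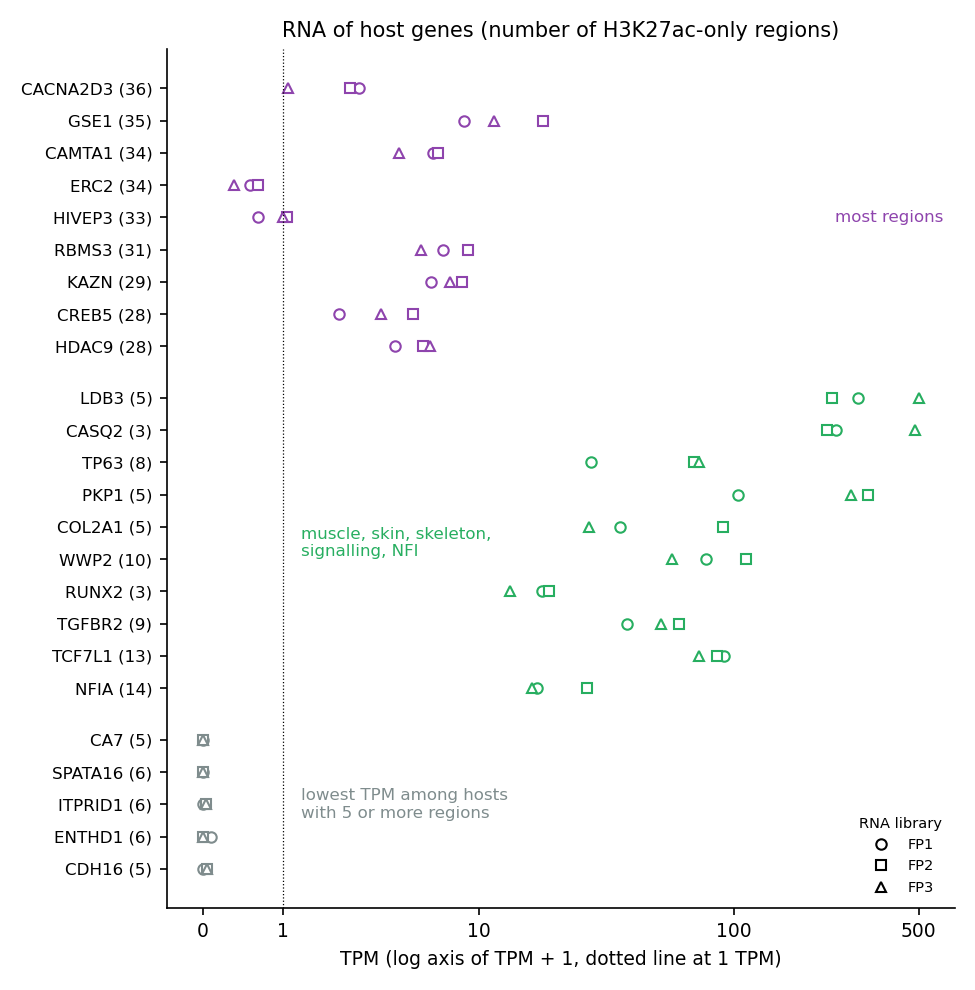
RNA of named host genes, with 1 symbol per library (FP1, FP2, FP3), on a log axis of TPM + 1, and the number of H3K27ac-only regions in brackets. Purple, the 9 hosts with the most regions that have usable counts, between 0.313 and 18.2 TPM. Green, hosts of muscle, skin, skeleton, signalling and the nuclear factor I family. Grey, the 5 hosts of lowest TPM among those with at least 5 regions, all under 0.1 TPM.

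The main question for a region inside a gene is whether the gene around it or another gene nearby is the one with RNA. The nearest other gene was the gene with the nearest TSS among those that do not contain the region, and 14715 of 14813 regions had usable counts for both genes. The host was expressed for 10476 of them (71.2%) and the nearest other gene for 7851 (53.4%), where 67.2% and 50.6% of eligible territory had an expressed host and an expressed other gene. With expression set at over 10 TPM the order turned, with the host past it for 32.1% of regions and the other gene for 34.2%. At that level 35.2% of all genes passed, each counted once, and the host share was 1.06 percentage points above that of the territory. By library, the host was above 1 TPM for 75.0%, 77.4% and 72.9% of regions in FP1, FP2 and FP3, and the nearest other gene for 56.1%, 57.3% and 54.7%. The difference was 19.1 ± 0.973 percentage points (SD, n = 3) and went the same way in 3 of 3 libraries, with an exact two-sided sign-flip permutation p = 0.25, which is the smallest p that 3 libraries allow and remains 0.25 after Benjamini-Hochberg adjustment over 3 quantities.

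Against the territory, the host share of the regions was higher by 4.35, 3.40 and 4.04 percentage points in FP1, FP2 and FP3, a mean of 3.93 ± 0.483 (SD, n = 3, exact two-sided sign-flip permutation p = 0.25, adjusted 0.25). This gap, 3.96 points when expression is asked in every library, was 1.06 points at over 10 TPM and 2.19 points without hosts over 1 Mb. Territory points, which cover all gene bodies, also had a gap between host and neighbour, with the host above 1 TPM for 70.7%, 74.0% and 68.9% and the other gene for 53.1%, 54.7% and 52.1%. For the 49629 regions in gene bodies with H3K4me3 the host was expressed at 78.8% and the nearest other gene at 55.4%.

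In level, the host was on the median slightly above the other gene. The median over regions of log2((host TPM + 1)/(other TPM + 1)) was 0.26, 0.35 and 0.29 in FP1, FP2 and FP3, a mean of 0.30 ± 0.04 (SD, n = 3, exact two-sided sign-flip permutation p = 0.25, adjusted 0.25), and 0.31, 0.41 and 0.29 for the territory. The host was the higher gene in every library for 7537 regions (51.2%), where the territory had 53.5%, and the lower gene in every library for 5733 (39.0%), where it had 36.1%. A host more than 1 log2 above the other gene in every library was found for 37.4% of regions (territory 36.2%) and one more than 1 log2 below for 29.3% (territory 26.4%). When each host was counted once, the median fell to 0.06, 0.08 and 0.06.

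The direction of this ratio turned with the gene models allowed. Where both genes have a symbol, at 8848 regions, the host was expressed for 75.5% and the other gene for 74.3%, and the median log2 ratio was −0.54, −0.54 and −0.53 in FP1, FP2 and FP3, with the host lower in every library for 53.0% of regions. The territory with symbols on both sides was also below 0, at −0.29, −0.31 and −0.28. Where the host has a symbol and the nearest other gene only a locus identifier, at 4364 regions, the other gene was expressed for 11.8%, its median TPM was 0 in every library, and the ratio was 2.49, 2.82 and 2.47. With host and other gene both sought among genes with a symbol only, the mean ratio was −0.60.

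The host TSS was the nearest of all for 9116 regions (61.5%), against 64.9% of the territory and 60.6% of regions with H3K4me3. At the 9073 of these with counts for both genes the host was expressed for 69.6% and the other gene for 58.3%, with log2 ratios of 0.05, 0.09 and 0.09 in FP1, FP2 and FP3. Where another gene had the nearer TSS, at 5642 regions, the host was expressed for 73.7% and the other gene for 45.4%, with ratios of 0.72, 0.87 and 0.69. Territory points had the same order, with 0.16, 0.23 and 0.16 where the host was nearest and 0.66, 0.80 and 0.57 where it was not.

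**Figure D4:**
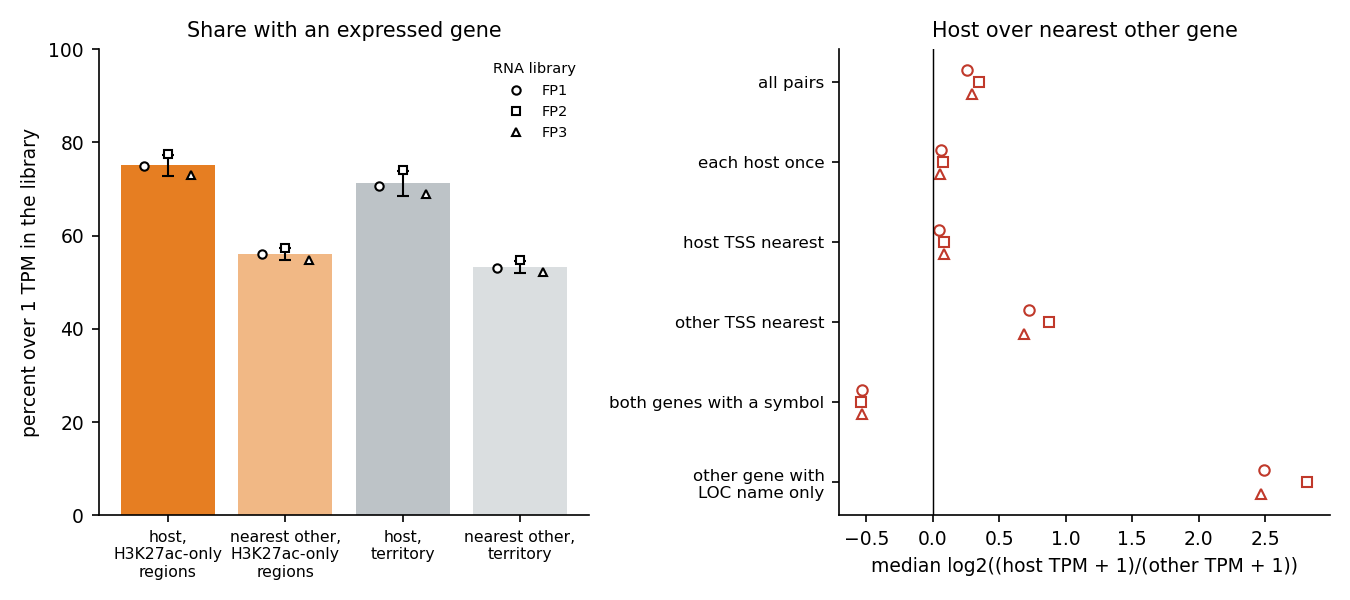
Left, percent of H3K27ac-only regions and of eligible territory whose host, or nearest other gene, was above 1 TPM, as the mean over libraries with SD and 1 symbol per library (FP1, FP2, FP3). Right, the median log2 ratio of host to nearest other gene in each library for all pairs and for subsets of them. The host bar of the regions is about 75% and the other bar about 56%, and the ratio lies above 0 for all pairs and near −0.5 where both genes have a symbol.

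Single genes fell far to either side. COL5A1, a chain of type V collagen, held 7 regions and had 133, 268 and 162 TPM, while FCN2, the nearest other gene of all 7, was at 0 counts in every library. ACTN4 had 221, 314 and 296 TPM with CAPN12, the nearest other gene of 2 of its 3 regions, at 0.235, 0.114 and 0.734 TPM, a log2 ratio of 7.68 ± 0.40 (SD, n = 3). CAV3, the caveolin of muscle, held 3 regions and stood 7.08 ± 0.31 above OXTR, the oxytocin receptor. SMYD1, a methyltransferase of the sarcomere, stood 6.56 ± 0.12 above FABP1, and ATP6V0D1, a proton pump subunit, 7.04 ± 0.19 above AGRP. FABP1 and AGRP were each the nearest other gene of 2 of the 3 regions of the host.

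On the other side the nearest other gene was abundant. DOC2B, a calcium sensor of exocytosis, held 5 regions and had 0.480, 0.667 and 0.484 TPM, while YWHAE, a 14-3-3 protein, had 753, 795 and 721 TPM, a ratio of −8.94 ± 0.05 (SD, n = 3). CACNG2, an auxiliary subunit of AMPA receptors, held 9 regions at 0.224, 0.247 and 0 TPM. EIF3D, a translation factor and the nearest other gene of 5 of the 9, had 443, 408 and 401 TPM. CLDN16, a claudin of the kidney, held 8 regions at 0 to 0.0671 TPM, and CLDN1, the claudin of the epidermal barrier, had 217, 306 and 303 TPM and was the nearest other gene of 7 of the 8. The host TSS was nearer than that of any other gene for all 5 regions of DOC2B, 4 of the 9 of CACNG2 and 7 of the 8 of CLDN16.

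PLEKHA7, a protein of the adherens junction, held 20 regions at 6.36 ± 1.36 TPM (SD, n = 3), and RPS13, a ribosomal protein and the nearest other gene of 12 of them, had 2484, 1464 and 1862 TPM. TRDMT1, an RNA methyltransferase, held 4 regions at 5.41, 5.68 and 3.84 TPM and VIM, the mesenchymal filament vimentin and the nearest other gene of 2 of them, had 1580, 1644 and 1829 TPM. In both cases the host was above 1 TPM in every library and still about 8 log2 units lower, at −8.02 ± 0.56 and −8.15 ± 0.36 (SD, n = 3). The host TSS was the nearest for 15 of the 20 regions of PLEKHA7 and 3 of the 4 of TRDMT1.

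Long genes have more room for regions, so hosts were set beside genes without a region in classes of span. The median host spanned 73.8 kb and the median gene without a region 9.06 kb. In genes of 100 to 300 kb, 1174 of 1537 hosts were expressed (76.4%) and 482 of 683 others (70.6%), and over 300 kb 369 of 580 hosts (63.6%) and 31 of 66 others (47.0%). In shorter genes the order was the opposite, with 69.9% of 2148 hosts and 72.3% of 2840 others at 30 to 100 kb, and 54.7% of 987 hosts and 66.9% of 4195 others at 10 to 30 kb. The hosts of 10 to 30 kb had a median of 2.69, 3.31 and 2.19 TPM in FP1, FP2 and FP3, and the others 9.64, 12.1 and 8.74 TPM.

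**Figure D5:**
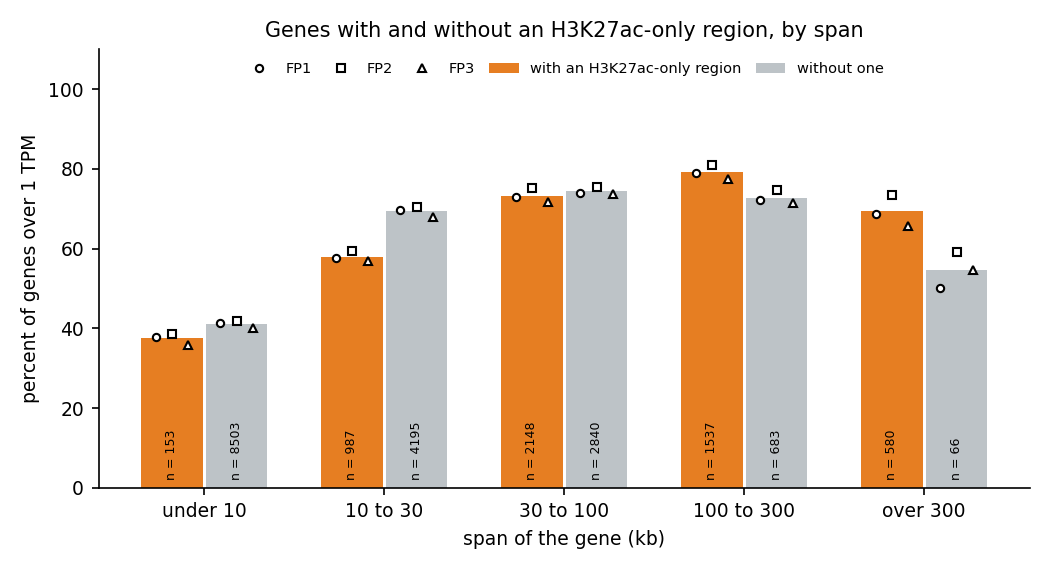
Percent of genes above 1 TPM among genes with and without an H3K27ac-only region, in 5 classes of gene span, as the mean over the 3 RNA libraries (bars) with 1 symbol per library and the number of genes in each bar. Genes with a region are lower at 10 to 30 kb, by 12.2 percentage points when expression is asked in every library, and higher at 100 to 300 kb, by 5.81.

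The gaps were −12.2, −2.40, 5.81 and 16.7 percentage points from the 10 to 30 kb class upward. Genes with a symbol alone gave −15.3, −4.22, 3.02 and 10.3. The gap over 300 kb fell to 4.83 points without H3K27ac replicate 1 and 9.22 without H3K27ac replicate 2. At 30 to 100 kb it was −0.0703 and −0.0530 without H3K4me3 replicates 1 and 2, and −1.37 without library FP3. At 10 to 30 kb it was −6.51 without H3K4me3 replicate 2, and at 100 to 300 kb 8.79 without H3K27ac replicate 2. Weighted by the number of hosts in each class the mean gap was 0.27 points, with the sign of the mean changing under other settings.

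The number of regions in a host went with its length more than with its RNA. Across 5405 hosts the Spearman correlation of the number of regions was 0.49 with gene span and 0.02 with mean TPM, given as a description because genes are not replicates. Hosts with 1 region were expressed in 64.3%, with 2 in 66.9%, with 3 to 4 in 70.0%, with 5 to 9 in 73.6% and with 10 or more in 76.9% of cases, while their median spans were 45.7, 70.6, 104, 170 and 385 kb. The median TPM of the host in FP1 was 5.89, 5.18, 5.17, 6.29 and 5.73 over the same classes and did not follow the order.

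The regions were denser in expressed genes, by little. There were 10477 regions in 702 Mb of eligible territory of expressed genes, 14.9 per Mb, and 4243 in 343 Mb of genes not expressed, 12.4 per Mb, a ratio of 1.21. For regions with H3K4me3 the densities were 55.7 and 30.6 per Mb, a ratio of 1.82. Inside gene bodies there were 14.1 H3K27ac-only regions per Mb and outside them 10.8. The length outside was counted only up to the last gene of each scaffold, while the regions were not, so 10.8 can be too high.

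Stronger regions were somewhat more often in expressed hosts. From the lowest to the highest quartile of mean enrichment the host was expressed for 69.7%, 70.6%, 70.0% and 74.5% of regions, and the nearest other gene for 53.8%, 53.0%, 52.3% and 54.4%. The median host level in the highest quartile was 6.38, 9.01 and 6.46 TPM in FP1, FP2 and FP3, and in the lowest 4.87, 6.86 and 4.71 TPM. The difference of 4.66 percentage points between the outer quartiles was 1.49 points when replicate 2 peaks alone defined the regions and 3.40 points with replicate 1 alone.

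Regions with an exonic summit lay in hosts with less RNA. Their host was expressed for 64.6% of 2027 regions, with medians of 4.11, 5.02 and 3.42 TPM in FP1, FP2 and FP3. For 12688 regions with an intronic summit the share was 72.2% and the medians were 5.85, 7.92 and 5.62 TPM. Exonic summits also lay nearer the host TSS, at a median of 46.3 kb against 65.6 kb, and these shares were not split by host span. The fold enrichments were alike, at 3.91 and 4.03 in replicates 1 and 2 for exonic and 3.87 and 4.03 for intronic summits.

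Hosts were then counted in lists of genes that mark the tissues of the face, beside the 32.2% of 14169 genes with a symbol that host a region. This share rises with span, being 2.03% under 10 kb, 19.4% at 10 to 30 kb, 43.9% at 30 to 100 kb, 70.1% at 100 to 300 kb and 91.1% over 300 kb, so each list is given with its median span. Tissue markers had summed TPM in FP1, FP2 and FP3 of 13683, 9423 and 14804 for 7 keratinocyte and periderm markers and 622, 546 and 457 for 6 of facial mesenchyme. Brain and eye markers, tissue that was removed at dissection, summed to 27.8, 19.7 and 11.7 TPM.

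Of 24 annotated genes of muscle contraction 7 were hosts (29.2%, median span 21.2 kb), with 42 regions, and the 6 with usable counts were all expressed at a median of 135 TPM, as were 16 of 17 without a region. CACNA1S, the calcium channel of skeletal muscle that senses voltage for contraction, held 5 regions and had 21.1, 22.8 and 18.2 TPM. The regulators of muscle fate were hosts in 4 of 15 cases (median span 15.9 kb) with 5 regions in all, and 4 of 4 were expressed, as were 9 of 11 without a region. PAX3, which marks muscle and neural crest progenitors, held a single region, enriched 5.93-fold and 4.48-fold in replicates 1 and 2 and 43.3 kb from its TSS, and had 28.1, 33.4 and 28.6 TPM.

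Of 18 cartilage genes 9 were hosts (median span 26.5 kb), with 35 regions, and all 9 were expressed, while 4 of the 9 without a region were. WWP2, a ubiquitin ligase whose gene also carries a microRNA of cartilage, held 10 regions in 122 kb at 78.0, 111 and 57.9 TPM, and SOX6, a factor of chondrocyte differentiation, held 10 in 631 kb at 2.33, 3.63 and 1.83 TPM. COL2A1, the chief collagen of cartilage, held 5 regions in 49.5 kb at 36.4, 90.9 and 27.6 TPM, highest in FP2. The summed cartilage markers were also highest in FP2, at 66.7, 170 and 67.5 TPM, and this sum includes COL2A1.

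Of 13 genes of bone 4 were hosts (median span 28.9 kb) with 8 regions, and 4 of 4 were expressed, as were 7 of 9 without a region. RUNX2, the master factor of osteoblasts, held 3 regions that were strong for the set, from 5.13 to 8.54 in replicate 1 and from 4.55 to 9.58 in replicate 2, all 83.5 to 121 kb from its TSS, and had 18.0, 19.1 and 13.4 TPM. CDH11, the cadherin of mesenchyme and osteoblasts, held 2 regions and no region with H3K4me3 beyond 3 kb, with 64.1 ± 27.6 TPM (SD, n = 3).

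Genes of epidermis and periderm were hosts in 10 of 25 cases (median span 24.9 kb) with 31 regions, and 10 of 10 were expressed, as were all 15 without a region. TP63, the master factor of stratified epithelium, held 8 regions in 165 kb with enrichments from 3.76 to 8.62 in replicate 1 and from 3.48 to 7.52 in replicate 2, and had 28.2, 70.2 and 73.3 TPM. It was lowest in FP1, as was PKP1, while the sum of keratinocyte and periderm markers was lowest in FP2. JAG2, a Notch ligand expressed in oral epithelium in mouse, held 4 regions and had 23.3, 25.8 and 22.9 TPM.

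Of 33 annotated neural crest and mesenchyme genes 8 were hosts (24.2%, median span 23.5 kb) with 32 regions, and 8 of 8 were expressed, as were 24 of 25 without a region. EBF1 held 6 regions and had 10.1, 10.8 and 7.18 TPM, and ETS1 held 4 with 16.8, 18.9 and 13.1 TPM. Both are transcription factors with roles in mesenchymal or neural crest cells.

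Of 33 signalling genes of face growth 16 were hosts (48.5%, median span 97.5 kb) with 63 regions, and 16 of 16 were expressed, as were the 17 without a region. TCF7L1, which represses Wnt targets, held 13 regions and had 91.5, 85.9 and 73.1 TPM. TGFBR2, a receptor of TGF-beta needed for palate growth in mouse, held 9 regions in 84.8 kb, all nearest to its own TSS, with a highest enrichment of 11.1 in replicate 1 and 7.58 in replicate 2, and had 38.8, 61.3 and 52.7 TPM. GLI2, an effector of Hedgehog signalling, held 7 in 404 kb and had 11.3, 13.8 and 9.74 TPM.

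All 4 genes of the nuclear factor I family, transcription factors of many developing tissues, were hosts, with 22 regions, a median span of 200 kb and 4 of 4 expressed. NFIA held 14 of them beside 124 regions with H3K4me3 and had 17.2, 27.2 and 16.4 TPM, NFIC held 4 at 14.8, 19.4 and 11.6 TPM, and NFIB held 3 at 25.7, 40.4 and 35.5 TPM. At NFIA the regions ran from 22.7 to 440 kb from the TSS, and their enrichments from 2.27 to 8.31 in replicate 1 and from 2.69 to 9.48 in replicate 2. FP2 was the highest library at all 3 genes.

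Lists of long genes had high shares of hosts. Of 28 genes of axon guidance and adhesion 20 were hosts (71.4%, median span 300 kb) with 140 regions, and 16 of these 20 were expressed, as were 7 of 8 without a region. SLIT3, a secreted repellent, held 28 regions at 7.42, 11.9 and 3.86 TPM, PLXNA4, a semaphorin receptor, held 27 at 1.08, 1.75 and 0.464 TPM, and EPHB2, an ephrin receptor with a role in the mouse palate, held 20 at 31.0, 28.9 and 25.7 TPM. Collagens and matrix genes were hosts in 15 of 21 cases (71.4%, median span 185 kb) with 69 regions, and all 15 were expressed, as were the 6 without a region. They were led by COL23A1 with 19 at 11.1, 14.3 and 10.5 TPM and COL27A1 with 8 at 5.35, 6.38 and 2.75 TPM.

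Cytoskeletal genes and effectors of the Hippo pathway were hosts in 12 of 15 cases (80.0%, median span 233 kb) with 68 regions, and the 11 with usable counts were expressed, as were the 3 without a region. LPP, a focal adhesion protein, held 27 regions and 165 with H3K4me3 at 4.16, 14.0 and 6.65 TPM, and no region had the LPP TSS as the nearest. TEAD1, the DNA-binding partner of YAP, held 11 at 8.98, 17.1 and 11.2 TPM. MACF1, which links actin and microtubules, held 9, and its counts were not used.

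Endothelial genes were hosts in 8 of 13 cases (61.5%, median span 58.8 kb) with 21 regions, and 7 of 8 were expressed, as were 4 of 5 without a region. FLT4, the receptor of lymphatic endothelium, held 6 at 5.06, 3.91 and 2.64 TPM, FLI1, a factor of endothelial and blood cells, 5 at 21.0, 19.7 and 16.4 TPM, and FLT1, a receptor of VEGF, 4 at 8.66, 9.34 and 8.11 TPM. Of 11 genes of macrophages and blood 3 were hosts (median span 18.9 kb) with 6 regions, and 2 of 3 were expressed, as were 7 of 8 without a region. The hosts were CSF1R, the receptor of colony-stimulating factor, with 3 at 4.19, 9.84 and 3.08 TPM, IKZF1, a lymphoid factor, with 2 at 0.240, 0.444 and 0.356 TPM, and RUNX1 with 1 at 2.94, 7.75 and 6.40 TPM.

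Genes of smell and touch were hosts in 6 of 16 cases (median span 9.73 kb) with 17 regions, and 4 of 6 were expressed, as were 10 of 10 without a region. ADCY3, the adenylate cyclase of olfactory cilia, held 7 at 18.2, 30.5 and 26.8 TPM, while NTRK2 and NTRK3, receptors of neurotrophins, held 3 each at 0.628 to 4.02 TPM and 0.0232 to 0.278 TPM. Of 12 brain and eye genes 3 were hosts (median span 6.66 kb) with 4 regions, and 2 of 3 were expressed, as were 2 of 9 without a region. PAX6, a factor of eye and nasal placode, held 1 at 5.24, 2.78 and 0.792 TPM, CRYAA, a lens crystallin, 1 at 4.33, 3.62 and 2.56 TPM and SATB1 2 at 9.98, 12.9 and 7.61 TPM. The highest library of PAX6 and CRYAA was FP1, which also had the highest sum of brain and eye markers, a sum that includes CRYAA.

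AUTS2, GALNT17 and SUGCT, named because their many nearby enhancers were known from earlier results, held 21, 15 and 18 regions in 779, 430 and 563 kb. AUTS2, a gene of neural development that acts with a Polycomb complex, had 56.9, 57.6 and 44.1 TPM and 184 regions with H3K4me3 in its body, and GALNT17 was the nearest other gene of 18 of its 21 regions. GALNT17, a glycosyltransferase, had 2.01, 4.20 and 1.04 TPM. SUGCT, a mitochondrial transferase, had 0.791, 0.679 and 0.207 TPM, and all 18 of its regions had the SUGCT TSS as the nearest although no H3K4me3 peak lay within 1 kb of that TSS.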

How the data were processed

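Reads of each ChIP library were mapped by the authors with Bowtie2 (2.3.5.1) to their own dunnart assembly, and peaks were called per replicate against input with MACS2 (2.1.1). The deposited peak lists hold a ratio to input, called fold enrichment, and −log10 values of the p-value and the q-value, beside a display score that was not used. The deposited gene counts over exons came from HISAT2 (2.21) and stranded featureCounts in Subread (2.0.1). Peaks above 1.301 in −log10 q were kept, and TPM came from the counts and summed exon lengths, with a pseudocount of 1 in ratios. Counts of 11 gene models split over 2 lines were not used. ChIP depth is unknown from the peak lists, and RNA library totals limit the precision of low TPM. Work was done in Python (3.11.15) with pandas (2.3.3), numpy (2.4.6) and scipy (1.17.1), with TMM factors of edgeR (4.0.16) as an alternative scaling. The steps were tested on simulated data. The regions, tests and gene lists were chosen with earlier results of these data known. Named hosts have a symbol and are the 10 with most regions, the 10 of highest TPM with at least 3 regions, the 5 of lowest TPM with at least 5, hosts of the 10 strongest regions, the 5 highest and 5 lowest ratios to a nearest other gene with a symbol, up to 3 per list, and NFIA, AUTS2, GALNT17 and SUGCT. Some of the genes this rule names are not reported here. Each library is a pool, and the same genes and regions were read in all of them. With 3 libraries of like sign the sign-flip p is fixed at its smallest value. It therefore does not measure the spread between pools, which the SD gives. No dunnart genome sequence was used here, and no sequence is shown.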

Additional observations from a re-analysis of the deposited data

How the results depend on the processing

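Of 22 alternatives, 21 left the median log2 ratio of host to nearest other gene above 0, between 0.07 with each host once and 0.68 with a pseudocount of 0.1 TPM, and genes with a symbol only reversed it to −0.60. With symbols only, the host was expressed for 75.9% of regions, the other gene for 74.8%, and the weighted gap between hosts and genes of like span was −1.82 points. Counting each host once gave 67.3% and 56.8%, a level of 10 TPM gave 32.1% and 34.2%, a gap to territory of 1.06 and a span gap of −2.81 points, and choosing the other gene by gene body gave 56.4%. A limit of 1 kb from a TSS gave a gap to territory of 3.35 points, a span gap of −0.551 and a correlation of regions per host with TPM of 0.0285, and 10 kb gave 5.50, 1.51 and 0.00774, with 12.7% of summits in exons. Leaving out hosts over 1 Mb gave a gap to territory of 2.19 points. Overlap of 50% of both lengths gave a span gap of −0.436 and a correlation of 0.0307, and 1 shared base gave 0.0215 and 5.35 points between the outer enrichment quartiles. H3K27ac q under 0.01 gave 1.02, 0.0294 and 3.73, removal by any deposited H3K4me3 peak 0.0122 and 5.204, and removal by H3K4me3 at the replicate 2 partner, an alternative chosen after seeing the data, 4.19 points. Leaving out 1 ChIP replicate or 1 RNA library gave 21498 to 28871 regions, 70.7 to 74.0% for hosts, 52.9 to 54.96% for other genes, a gap to territory of 3.47 to 5.196, a span gap of −0.390 to 2.206, a correlation of 0.000978 to 0.0262, a quartile difference of 1.49 to 6.01 and 13.0002 to 15.3% of summits in exons. The cause of these moves was not tested. No paired analysis was possible because no groups of samples were compared and the RNA columns carry no replicate number tied to the ChIP pools.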

Other observations

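Regions strong in both replicates were looked up after the values were seen, and 18 regions passed 8-fold in both. After the DCLK1 region, the next by the lower of its replicates lay in MORN1, with 11.7 and 12.3, where the host averaged 0.635 ± 0.117 TPM and RER1, a protein of the Golgi and the nearest other gene, 118 ± 19.2 TPM (SD, n = 3). CUBN, the endocytic receptor cubilin, held one at 10.3 and 13.9 with 0.589 ± 0.248 TPM. The nearest other gene was RSU1 at 60.1 ± 7.15 TPM, with its TSS 154 kb from the region and that of CUBN 139 kb. In CHN1, a GTPase-activating protein of axon guidance, the region had 10.3 and 12.9, with 30.3 ± 7.83 TPM for CHN1 and 91.1 ± 10.1 TPM for CHRNA1, the muscle acetylcholine receptor subunit. NXN, a thioredoxin-like protein, held one at 10.1 and 12.6 with 88.2 ± 16.3 TPM, against 33.6 ± 5.65 TPM for MRM3. RGL1 held one in an exon at 11.3 and 10.3 with 9.09 ± 2.65 TPM, and FZR1, a cell cycle regulator, one at 9.12 and 9.53 with 30.5 ± 2.50 TPM. The replicate 2 partner touched H3K4me3 at MORN1 and NXN and not at CUBN, CHN1, RGL1 and FZR1.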
